A study of Mus musculus with 4 samples.

Results

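The genes described here are 8 that encode surface molecules with which macrophages engage T cells and other leukocytes: Cd40, Cd80, Cd86, Cd274, Pdcd1lg2, Icosl, Icam1 and Vcam1. They were chosen by symbol, and each symbol's NCBI gene identifier was looked up in the deposited tables, which together list 15935 genes. All 8 were listed in all 4 libraries. RNA was sequenced from bone marrow-derived macrophages of adult C57BL/6 mice, cultured during 5 days with M-CSF-conditioned medium to become macrophages. Donor mice were wild type (WT) or carried floxed Ezh2 and lysM Cre (genotype EZH2-/- in the labels, KO here). In these mice Cre recombinase from the lysozyme M gene acts on the floxed gene in myeloid cells. The labels leave unstated whether treated and untreated cells shared a culture or mouse. Ezh2 encodes the histone methyltransferase of the Polycomb repressive complex PRC2. Both genotypes were sampled without treatment (NT) and after 2 h with lipopolysaccharide (LPS), a bacterial product sensed by Toll-like receptor 4. With 1 library in each of the 4 groups, differences could not be checked against replicates, and p-values are not given.

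T cells are activated by an antigen receptor signal together with costimulation. CD80 and CD86 bind CD28, which promotes activation, and CTLA-4, which restrains it, while the ligand of ICOS, encoded by Icosl, acts on activated T cells. CD40 is itself a receptor of the TNF receptor family, engaged by CD40 ligand on helper T cells. PD-L1 (Cd274) and PD-L2 (Pdcd1lg2) bind PD-1 and inhibit T cells, and ICAM-1 and VCAM-1 hold leukocytes through integrins. Several of these genes are well known to be induced in macrophages and dendritic cells by Toll-like receptor signals through NF-kB and interferons.

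The total expected count (the estimated number of reads assigned to genes) was 5237782 to 5678451 per library. FPKM scales a gene's fragments to its length and to the library's size, so levels of different genes can be compared per length. The targeted gene Ezh2 was at 2.84 (NT) and 2.52 FPKM (LPS) in WT cells and at 2.06 (NT) and 1.29 FPKM (LPS) in KO cells, from 43, 38, 31 and 18 counts. Its KO to WT ratio was 0.725 (95% counting interval 0.442 to 1.18) at NT and 0.512 (0.275 to 0.919) at LPS, so it was still detected in KO, and a gene-level count does not measure a deletion of some exons. All 12 macrophage markers reached 1 FPKM, among them Csf1r, Cd68 and Adgre1. Of 9 dendritic cell markers, 3 reached 1 FPKM in any library, and the summed level of the list was 2.86 to 4.75 FPKM, with Zbtb46 and Flt3 at most at 0.18. The 5 B cell markers summed to 0.76 to 3.71 FPKM, and of the 5 T cell markers, which summed to 6.13 to 13.6 FPKM, Cd4 reached 1 FPKM while Cd3e and Cd3g were not listed in any library. The 8 neutrophil markers, mostly S100a8 and S100a9, summed to 371 (NT) and 404 FPKM (LPS) in WT cells. In KO cells they summed to 633 (NT) and 553 FPKM (LPS). The 10 endothelial and stromal markers summed to 19.7, 18.1, 11.4 and 9.80 FPKM in the same order, most of it Kdr, and Tek was not listed. The part of these other cells in the results below was not tested, and in bulk RNA fewer cells of a type and less RNA per cell cannot be told apart.

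The RefSeq promoter table of GRCm38.p6 held 5 of the 8 genes (Icam1, Icosl, Cd80, Cd274 and Pdcd1lg2), each with 250 bases before and 50 after the start that the table uses. That start is the first base of the gene's span for Icam1, Icosl and Pdcd1lg2. For Cd80 it lies 1503 bases downstream of the span's first base (38458933 against 38457430) and for Cd274 5331 bases downstream (29367438 against 29362107), and distances below are counted from the table's start. Cd40, Cd86 and Vcam1 were not among them. Of these promoters, 4 are shown because they belong to the gene with the highest level after LPS, the lower of the costimulatory pair Cd80 and Cd86, and the neighbouring pair of PD-1 ligands, which differed widely in level. All lie on the plus strand, at chr9:21015690-21015989 (Icam1), chr16:38458683-38458982 (Cd80), chr19:29367188-29367487 (Cd274) and chr19:29410669-29410968 (Pdcd1lg2). Capitals mark matches to 1 of 4 motifs searched on both strands. These were the NF-kappaB consensus GGGRNWYYCC, the core of the interferon-stimulated response element GAAANNGAAA, the STAT-binding GAS motif TTCNNNGAA and the AP-1 motif TGANTCA. N is any base, R is A or G, W is A or T and Y is C or T.
Icam1: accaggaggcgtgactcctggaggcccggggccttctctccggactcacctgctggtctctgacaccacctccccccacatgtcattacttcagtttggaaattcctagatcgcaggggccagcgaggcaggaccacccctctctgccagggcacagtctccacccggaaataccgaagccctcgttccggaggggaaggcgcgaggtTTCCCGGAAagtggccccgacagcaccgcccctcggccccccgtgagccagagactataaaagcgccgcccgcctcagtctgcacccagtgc
Cd80: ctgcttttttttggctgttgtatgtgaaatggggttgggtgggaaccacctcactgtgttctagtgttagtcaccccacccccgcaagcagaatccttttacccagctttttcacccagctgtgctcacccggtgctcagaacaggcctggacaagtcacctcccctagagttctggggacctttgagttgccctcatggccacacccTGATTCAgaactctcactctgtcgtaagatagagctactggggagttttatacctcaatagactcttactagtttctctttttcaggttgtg
Cd274: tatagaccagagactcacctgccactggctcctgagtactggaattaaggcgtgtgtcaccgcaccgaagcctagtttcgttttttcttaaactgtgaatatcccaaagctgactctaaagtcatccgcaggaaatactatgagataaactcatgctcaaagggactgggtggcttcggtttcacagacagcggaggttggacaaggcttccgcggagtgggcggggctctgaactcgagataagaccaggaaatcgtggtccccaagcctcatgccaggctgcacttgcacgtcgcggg
Pdcd1lg2: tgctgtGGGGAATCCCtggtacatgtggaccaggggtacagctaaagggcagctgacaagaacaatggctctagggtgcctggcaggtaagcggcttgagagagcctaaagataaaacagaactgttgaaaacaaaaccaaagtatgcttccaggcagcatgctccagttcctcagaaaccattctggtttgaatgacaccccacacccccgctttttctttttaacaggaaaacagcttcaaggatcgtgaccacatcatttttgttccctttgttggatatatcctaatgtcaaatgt
In these 300-base windows there was 1 match in Icam1, TTCCCGGAA to the GAS motif, 42 to 34 bases before that start. Cd80 held 1 AP-1 match, TGATTCA, 42 to 36 bases before the start. Pdcd1lg2 held 1 match to the NF-kappaB consensus, GGGGAATCCC, 244 to 235 bases before the start, and no matches overlapped. The Cd274 and Icosl windows held none of the 4 motifs. Over all 32851 promoters of the table, 4.51% held the NF-kappaB consensus, 3.44% the interferon element core, 8.30% the GAS motif and 7.81% the AP-1 motif. A match describes letters and does not show binding. The lack of a match does not show that a site is absent, because variants of these motifs were not searched. The Icam1 window, for example, holds tggaaattcc, which differs from the NF-kappaB consensus in its first base only.

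The adhesion gene Icam1 had the highest level of the 8 in both LPS libraries. Icam1 (gene ID 15894, chromosome 9, 21015940 to 21028814, plus strand in GRCm38) encodes the ligand of the integrins LFA-1 and Mac-1. It stood at 26.9 (NT) and 1072 FPKM (LPS) in WT cells and at 34.8 (NT) and 1103 FPKM (LPS) in KO cells, from 388, 15377, 502 and 14705 counts. Both LPS libraries were far above both NT libraries. By level it was gene 2795 of 14299 listed in WT NT and gene 50 of 13972 in WT LPS.

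Vcam1 (gene ID 22329, chromosome 3, 116110020 to 116129688, minus strand) encodes the ligand of the integrin VLA-4 and is best known from activated endothelium. It was at 1.70 (NT) and 30.4 FPKM (LPS) in WT cells and at 1.45 (NT) and 31.4 FPKM (LPS) in KO cells, from 33, 585, 28 and 562 counts. Per length, Icam1 stood 15.8 times above Vcam1 in WT NT (95% counting interval 11.1 to 23.3) and 35.3 times in WT LPS (32.5 to 38.4). Of the 10 endothelial and stromal markers, Kdr was at 13.0 (NT) and 10.3 FPKM (LPS) in WT, Cdh5 at 0.26 and 0.35, Pdgfrb at 0.23 and 0.91 and Cxcl12 at 0.21 and 1.02. Their part in the level of Vcam1 was not tested.

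Among the costimulatory genes, Cd40 (gene ID 21939, chromosome 2, 165055614 to 165071654, plus strand) had the widest range. It was at 7.55 (NT) and 321 FPKM (LPS) in WT cells and at 8.15 (NT) and 303 FPKM (LPS) in KO cells, from 71, 3048, 76 and 2658 counts. Icosl (gene ID 50723, chromosome 10, 78069368 to 78079525, plus strand) was at 4.22 (NT) and 60.5 FPKM (LPS) in WT cells and at 4.10 (NT) and 59.2 FPKM (LPS) in KO cells, from 66, 940, 64 and 855 counts. For both genes the libraries of a state lay close together and the states far apart.

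The CD28 ligands had smaller differences between the states. Cd80 (gene ID 12519, chromosome 16, 38457430 to 38495958, plus strand) was at 2.91 (NT) and 11.6 FPKM (LPS) in WT cells and at 2.29 (NT) and 7.56 FPKM (LPS) in KO cells, from 28, 111, 22 and 67 counts. Cd86 (gene ID 12524, chromosome 16, 36568956 to 36666158, minus strand) was at 17.5 (NT) and 33.8 FPKM (LPS) in WT cells and at 13.1 (NT) and 30.8 FPKM (LPS) in KO cells, from 253, 485, 189 and 410 counts. Cd86 was thus the higher of the pair in each library. Its level was 6.02 times that of Cd80 in WT NT (4.06 to 9.24) and 2.91 times in WT LPS (2.36 to 3.61), so the gap was narrower with LPS. In KO the same ratio was 5.72 (3.67 to 9.35) without LPS and 4.07 (3.14 to 5.35) with LPS, and these intervals overlap.

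The PD-1 ligands lie next to each other on chromosome 19 and differed widely in level. Cd274 (gene ID 60533, 29362107 to 29388095, plus strand) was at 39.2 (NT) and 174 FPKM (LPS) in WT cells and at 28.6 (NT) and 119 FPKM (LPS) in KO cells, from 818.92, 3599.72, 595.13 and 2292.17 expected counts. The fractional counts mean that some of its reads also fitted another gene. How many did is not known, so how far this affects its level cannot be told. Both WT libraries lay above the KO library of the same state. Pdcd1lg2 (gene ID 58205, 29410919 to 29472927, plus strand) starts 22824 bases beyond the end of Cd274. It had 2 counts in WT NT and 1 in each other library, or 0.05 to 0.10 FPKM. At this depth no fold can be given for it, and the KO or LPS dependence of Pdcd1lg2 was not detectable.

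**Figure D1:**
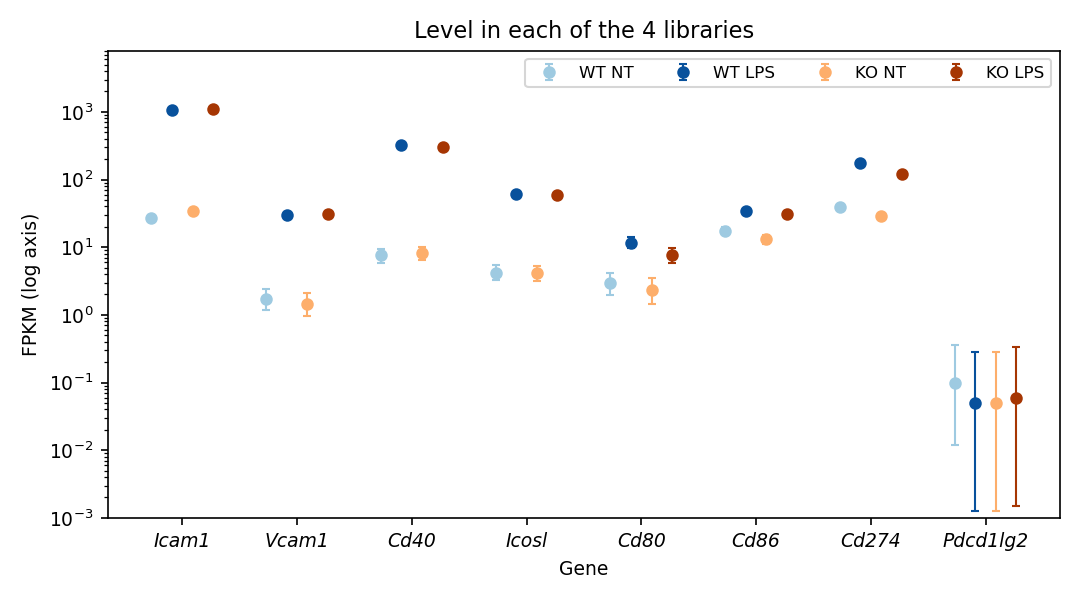
FPKM of the 8 genes (x axis) on a log axis in the 4 libraries (colours, 1 library each). Bars are exact 95% Poisson intervals of the counts and cover counting error only. Icam1 reaches 1072 and 1103 FPKM with LPS, while Pdcd1lg2 stays at or below 0.10 FPKM in each library.

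Ordered by FPKM in WT NT, the genes were Cd274, Icam1, Cd86, Cd40, Icosl, Cd80, Vcam1 and Pdcd1lg2. The counting intervals of Icosl and Cd80 overlapped, as did those of Cd80 and Vcam1. In WT LPS the order was Icam1, Cd40, Cd274, Icosl, Cd86, Vcam1, Cd80 and Pdcd1lg2, with overlap only between Cd86 and Vcam1. The KO libraries had nearly the same orders, except that Icam1 stood above Cd274 without LPS (34.8 against 28.6 FPKM) and that Vcam1 and Cd86, whose intervals overlapped, changed places with LPS. Together the 8 genes held 0.0292% of the counts in WT NT and 0.429% in WT LPS, and 0.0261% and 0.411% in KO.

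The first comparison asks how 2 h of LPS changed these genes in WT cells. The 7 genes other than Pdcd1lg2 all had a higher level with LPS, where 21.7% of all genes did, and 6 of them were at least 2-fold higher on the scale of log2(FPKM + 1), which understates the folds of low genes. Over all 10972 genes of at least 1 FPKM in WT NT or WT LPS, 6.41% passed this size upwards and 17.2% downwards. When libraries were rescaled by their median ratio, 1050 genes were higher and 825 lower in place of 703 and 1886. The median log2 fold of the 7 genes was 3.54, against -0.46 for all genes. Rescaling moved the median of all genes to -0.03, so folds are best read against that shift.

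Icam1 and Cd40 had nearly the same fold in WT. The FPKM ratio of LPS to NT was 39.9 for Icam1 (exact 95% interval 36.1 to 44.3) and 42.6 for Cd40 (33.6 to 54.6). Ranked by log2 fold of FPKM + 1 and not by this ratio, they stood 32nd and 33rd from the top among all genes. Vcam1 and Icosl formed the next pair, at ratios of 17.9 (12.6 to 26.2) and 14.3 (11.2 to 18.7). Cd274 was 4.43 times as high (4.10 to 4.78) and Cd80 4.0 times (2.62 to 6.29). Cd86 had the smallest difference, at 1.93 times (1.66 to 2.26) and a log2 fold of 0.91, just short of the 2-fold rule, which it passed with median-ratio scaling (1.37). The intervals of all 7 lay above 1, as did those of 13.3% of all genes, and the intervals of Icam1, Cd40, Icosl and Vcam1 did not overlap those of Cd274, Cd80 and Cd86. All these intervals reflect counting alone and say nothing of cultures or mice.

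The same comparison in KO cells again put Icam1, Cd40, Vcam1 and Icosl above Cd274, Cd80 and Cd86. All 7 measured genes were higher (23.4% of all genes were) and all 7 by at least 2-fold, where 6.61% of 11069 genes were that much higher and 15.1% that much lower. With median-ratio scaling 1073 genes were higher and 752 lower, against 732 and 1667. The median log2 fold of the 7 was 3.56, with all genes at -0.42. Cd40 was 37.1 times as high (29.6 to 47.3), Icam1 31.7 times (29.0 to 34.7), Vcam1 21.7 times (14.8 to 32.9) and Icosl 14.4 times (11.2 to 18.9). Here the interval of Vcam1 overlapped those of Icam1 and Cd40, which it did not in WT. Cd274 (4.17, 3.81 to 4.57), Cd80 (3.30, 2.01 to 5.61) and Cd86 (2.35, 1.97 to 2.81) again had the smaller ratios. All 7 intervals lay above 1, where those of 14.5% of all genes did.

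**Figure D2:**
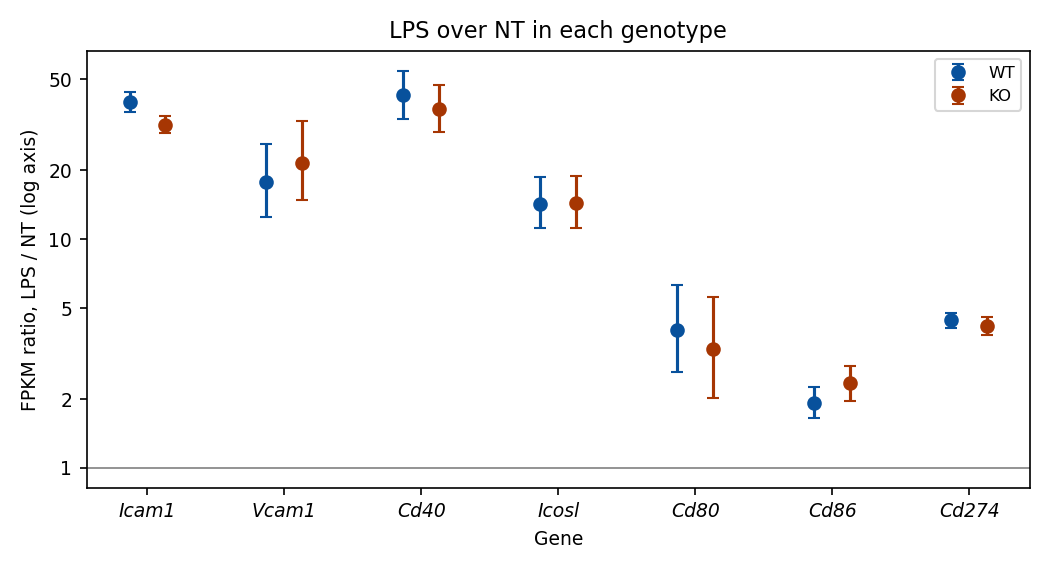
FPKM ratio of LPS to NT (y axis, log) for the 7 measured genes in WT and KO, 1 library per group. Bars are exact 95% intervals of the ratio (counting error only). Cd40 and Icam1 lie above 30 in both genotypes, Vcam1 and Icosl between 14 and 22, and Cd274, Cd80 and Cd86 below 5.

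**Figure D3:**
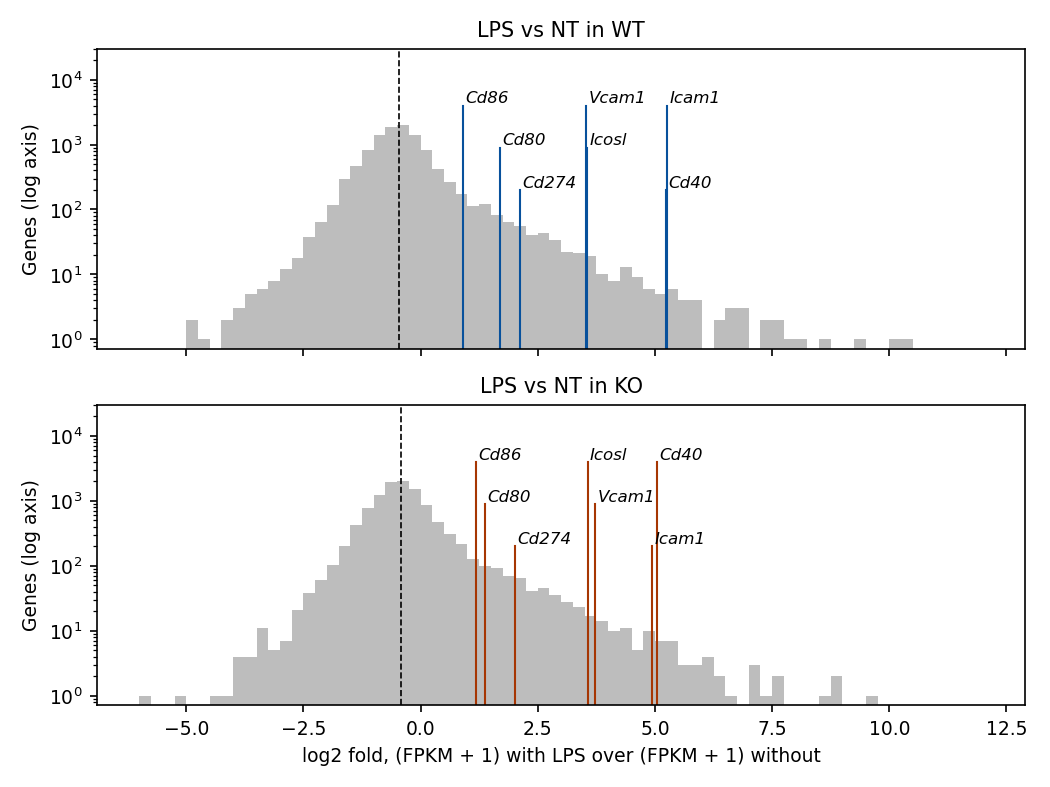
Number of genes (y axis, log) by log2 fold of LPS against NT (x axis) in WT (top) and KO (bottom), for all genes of at least 1 FPKM in 1 of the libraries compared. The dashed line is the median of all genes, -0.46 and -0.42, and the labelled lines are the 7 genes, which lie to its right.

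The comparison of the LPS responses asks whether the KO cells responded as the WT cells did. None of the 7 genes differed between genotypes by 1 or more in log2 fold, where over 11320 genes 1.90% were at least 1 higher in KO and 1.42% at least 1 lower. The KO ratio divided by the WT ratio was 0.794 for Icam1 (exact conditional 95% interval 0.693 to 0.911). Its lower fold in KO went with a higher NT level, while the LPS levels were nearly equal. For the other 6 genes the interval included 1: 0.873 for Cd40 (0.620 to 1.23), 0.827 for Cd80 (0.418 to 1.65), 1.22 for Cd86 (0.961 to 1.54), 0.942 for Cd274 (0.836 to 1.06), 1.01 for Icosl (0.694 to 1.46) and 1.21 for Vcam1 (0.700 to 2.11). The intervals of Cd80 and Vcam1 rest on 22 to 33 counts without LPS. By a log-scale counting interval, which could be computed for all genes, 5.20% of 10963 genes lay below 1, as Icam1 did, and 12.4% above.

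Between genotypes without LPS, differences were small. None of the 7 genes was 2-fold apart, where 0.919% of 10990 genes were above that size in KO and 0.883% below. Cd274 was lower in KO (39.2 against 28.6 FPKM), at a ratio of 0.728 (0.654 to 0.810), and so was Cd86 at 0.748 (0.616 to 0.907). Icam1 was higher, at 1.30 (1.13 to 1.48). The intervals of these 3 genes excluded 1, where 14.1% of all genes had an interval above 1 and 11.6% below. The ratios of Cd40 (1.08, 0.771 to 1.51), Icosl (0.972, 0.678 to 1.39), Vcam1 (0.853, 0.497 to 1.46) and Cd80 (0.787, 0.429 to 1.43) had intervals that included 1. For these low genes a difference of up to the interval's ends was not detectable at this depth. The median log2 fold of the 7 was -0.14, with all genes at 0.02. Of the other cell types, neutrophil markers summed to 633 FPKM in KO and 371 in WT. Most of this was S100a8 (219 and 122) and S100a9 (282 and 156). Ltf, Elane, Ngp and Camp were also higher in KO, while Mpo (3.56 and 4.24) and Ly6g (0 and 0.23) were lower. Endothelial and stromal markers summed to 11.4 in KO and 19.7 in WT. The part of these cell types in the differences was not tested.

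With LPS, again none of the 7 genes was 2-fold apart between KO and WT, where 1.45% of 10375 genes were higher by that much and 1.12% lower. From CPM made from the expected counts, 232 genes were higher and 116 lower, against 150 and 116 from FPKM. Cd80 and Cd274 lay furthest below WT. With LPS, Cd80 was at 11.6 FPKM in WT and 7.56 in KO, a ratio of 0.650 (0.473 to 0.888), and Cd274 at 174 and 119, a ratio of 0.685 (0.650 to 0.722). Cd40 was at 0.942 times the WT level (0.894 to 0.993). The intervals of these 3 lay below 1, where 9.50% of all genes had one below 1 and 21.2% above. Cd86 (0.910, 0.796 to 1.04), Icosl (0.979, 0.891 to 1.08) and Vcam1 (1.03, 0.920 to 1.16) had intervals that included 1. Icam1 was at 1.03 (1.01 to 1.05), and the sign of its log2 fold, 0.04, changed with median-ratio scaling (-0.03), as did that of Vcam1 (0.05 to -0.02). The median of the 7 was -0.09 and that of all genes 0.08. Cd274 was the gene of the 7 whose interval lay below 1 in both states. The 2 LPS libraries enter this comparison and the LPS responses above, so the values are not independent of each other.

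**Figure D4:**
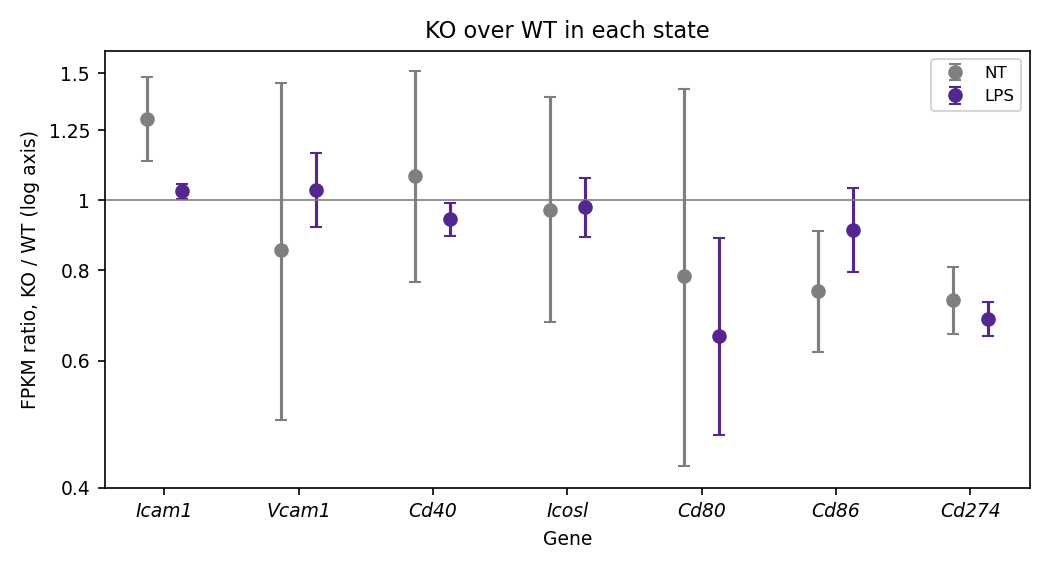
FPKM ratio of KO to WT (y axis, log) for the 7 measured genes without LPS (grey) and with LPS (purple), 1 library per group. Bars are exact 95% intervals (counting error only). Cd274 lies below 1 in both states at 0.728 and 0.685, and Icam1 goes from 1.30 without LPS to 1.03 with LPS.

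Other costimulatory and coinhibitory ligands responded unevenly. Of 20 genes in that list, 14 were measured in WT, and 11 of these reached 1 FPKM without LPS. The other 3 (Tnfsf4, Tnfsf14 and Tnfsf15) reached it with LPS alone, so those 3 had to be higher. Of the 11, 4 passed the 2-fold rule upwards and 1 downwards, at a median log2 fold of -0.12, where the rule was passed by 6.41% and 17.2% of all genes and their median was -0.46. In KO 12 of 16 reached 1 FPKM without LPS, and 4 of these passed upwards and 0 downwards at a median of 0.04, where 6.61% and 15.1% of all genes passed and their median was -0.42. Tnfsf9, the ligand of 4-1BB, went from 2.76 to 458 FPKM in WT and from 2.18 to 514 in KO. Among the 3 that had to be higher, Tnfsf15, whose fractional counts show shared reads, went from 0.38 to 26.4 FPKM in WT. Tnfsf4, the OX40 ligand and also 1 of these 3, went from 0.44 to 13.4 FPKM (4 to 121 counts). Cd83, a marker of activated antigen-presenting cells, went from 30.3 to 291 FPKM in WT. Pvr, a ligand of the receptors DNAM-1 and TIGIT, went from 7.86 to 73.8 FPKM in WT and from 6.72 to 69.2 in KO. The member at least 2-fold lower in WT was Vsir, which encodes the T cell inhibitor VISTA, at 56.7 and 26.1 FPKM. Vsir was chosen for naming after its values were seen. Between genotypes with LPS, 1 of 16 was at least 2-fold apart, where 1.45% of all genes were that much higher and 1.12% lower: Tnfsf14 (LIGHT) at 2.09 FPKM in WT and 5.23 in KO, from 22 and 51 counts (ratio 2.50, 1.49 to 4.33).

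Among 16 other adhesion genes, 6 reached 1 FPKM without LPS in WT and 5 in KO. Of these, 1 was at least 2-fold higher with LPS in each genotype, at medians of 0.05 and 0.30, where 6.41% and 6.61% of all genes were and their medians were -0.46 and -0.42. In WT 1 more gene (Sele) and in KO 3 more (Sele, F11r and Icam4) reached 1 FPKM with LPS alone. Cd44, the hyaluronan receptor, went from 86.7 to 341 FPKM in WT and from 72.5 to 360 in KO. Sele, which encodes E-selectin, was not listed in either NT library and had 61 counts in WT LPS and 53 in KO LPS. Against a floor of 3 counts per library it was at least 20.5-fold higher in WT and at least 19.1-fold higher in KO, bounds that leave out the counting error of the LPS counts. The exact 95% intervals of its ratio began at 16.2 and 15.0. None of the measured members was 2-fold apart between genotypes in either state. Over all genes, 0.919% were that much higher in KO and 0.883% lower without LPS, and 1.45% and 1.12% with LPS. With so few genes, a count of 0 is near these shares.

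Of 13 genes that encode receptors of these ligands, 9 were measured. With LPS, 1 passed the rule upwards and 1 downwards in WT, and 2 and 1 in KO, where 6.41% of all genes passed upwards and 17.2% downwards in WT and 6.61% and 15.1% in KO. With 9 genes, counts of 1 or 2 are near these shares. The medians were -0.23 and -0.26, with all genes at -0.46 and -0.42. Itga4, the alpha chain of the VCAM-1 receptor, went from 11.7 to 32.7 FPKM in WT and from 14.2 to 36.3 in KO, with fractional counts. Itgal, the alpha chain of LFA-1, went from 8.29 to 16.9 FPKM in WT, just short of the rule (log2 fold 0.95), and from 8.33 to 18.1 in KO (1.03). Cd28, the receptor of CD80 and CD86 and usually a T cell gene, was at 29.7 (NT) and 12.5 FPKM (LPS) in WT and at 38.4 and 17.7 in KO. Of the T cell markers, Cd4 was at 7.70 (NT) and 5.82 FPKM (LPS) in WT and at 12.4 and 9.03 in KO. Cd8a was at 0.34 and 0.17 FPKM in WT and at 0.79 and 0.31 in KO. Cd3d was at 0.46 and 0.14 FPKM in WT and at 0.39 and 0.67 in KO. Both Cd8a and Cd3d lay below 1 FPKM in each library, too low for a direction to be read. Cd3e and Cd3g were listed nowhere. The part of T cells in the level of Cd28 was not tested. Between genotypes 0 of the 9 receptors were 2-fold apart in either state. This is near the shares of all genes, 0.919% higher and 0.883% lower without LPS, and 1.45% and 1.12% with LPS.

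Of 11 measured genes that act in CD40 signalling, 6 passed upwards and 1 downwards with LPS in each genotype, where 6.41% and 17.2% of all genes did in WT and 6.61% and 15.1% in KO. The medians were 1.40 in WT and 1.59 in KO. Traf1, an adaptor of TNF receptors, went from 6.13 to 165 FPKM in WT and from 6.90 to 152 in KO. Nfkb2 and Relb, which encode the subunits of the noncanonical NF-kB dimer, were 8.0 and 4.77 times as high in WT and 8.15 and 4.97 times in KO. Birc3, a ubiquitin ligase of the TRAF complex with fractional counts, was 7.10 and 6.85 times as high. The gene at least 2-fold lower was Map3k14, the kinase NIK of the noncanonical pathway, at 6.78 and 2.32 FPKM in WT and 8.85 and 1.82 in KO, and it was named after its values were seen. Between genotypes 0 of the 11 were 2-fold apart in either state. This is near the shares of all genes, 0.919% higher and 0.883% lower without LPS, and 1.45% and 1.12% with LPS.

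Of 8 transcription factors and regulators of the NF-kB, STAT and IRF families, 5 were at least 2-fold higher with LPS in each genotype, where 6.41% of all genes were in WT and 6.61% in KO. The medians were 1.98 in WT and 1.77 in KO. Nfkbia, the inhibitor of NF-kB, went from 33.6 to 791 FPKM in WT, Rel from 7.55 to 97.5, Irf1 from 40.8 to 463 and Nfkb1 from 28.9 to 173. Between genotypes none of the 8 was 2-fold apart in either state. This is near the shares of all genes, 0.919% higher and 0.883% lower without LPS, and 1.45% and 1.12% with LPS. With LPS, 3 of the 8 had an interval below 1 and 3 had one above 1, where 9.50% and 21.2% of all genes did. The median log2 fold of the 8 was -0.07. Irf1, a known regulator of Cd274 in interferon responses and compared between genotypes here after its values were seen, was at 0.763 times the WT level (0.733 to 0.795). Its part in the level of Cd274 was not tested.

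**Figure D5:**
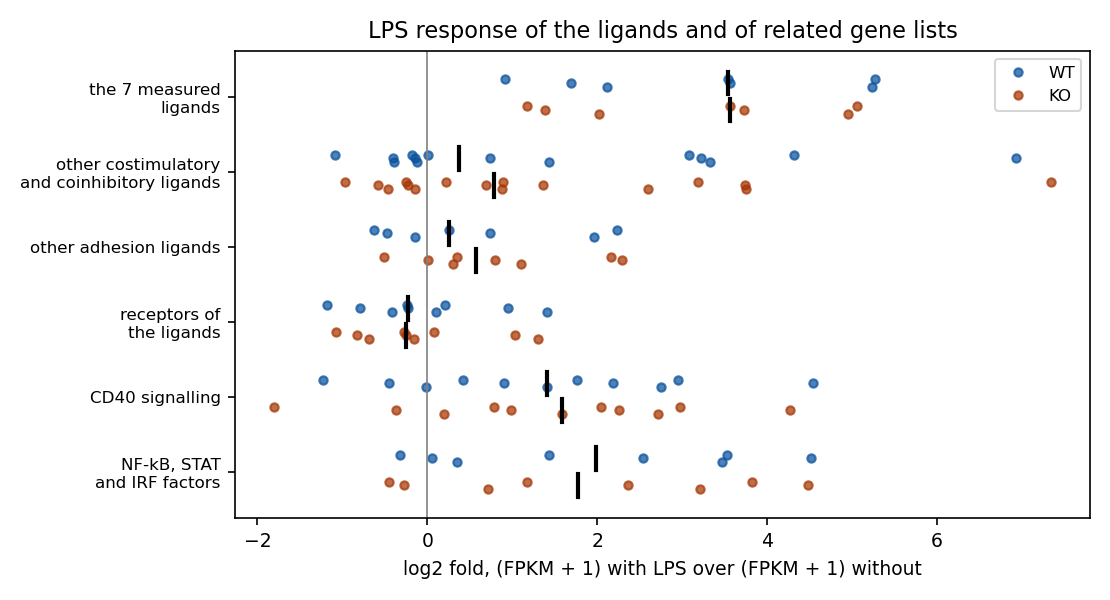
Log2 fold of LPS against NT (x axis) for the 7 measured ligands and for the measured genes of 5 related lists (rows) in WT and KO. Each point is a gene of at least 1 FPKM in either library. Points of the other ligand lists include genes that reached 1 FPKM with LPS alone and so had to be higher. Black ticks are medians of all points, which are 3.54 and 3.56 for the 7 ligands and -0.23 and -0.26 for their receptors.

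Genes with the most similar profiles were searched by distance, over the log2 differences of WT LPS, KO NT and KO LPS from WT NT, which are 3 values from 4 libraries. The genes nearest to Cd40 were Gem, a small GTPase (0.08 to 41.3 FPKM in WT), Gm12505 and Serpinb2, at distances of 0.12, 0.14 and 0.23 log2 units. Gem and Gm12505 were also nearest to Icam1 (0.20 and 0.21), followed by Nfkbiz, which encodes a nuclear NF-kB regulator (0.26). Icosl and Vcam1 lay close to each other (0.12), and both had Flrt3 among their nearest 3. The other genes near them were Ier3 for Icosl and Phlda1 for Vcam1. For Cd274 the nearest were Helz2, Tagap and Gbp7 (0.19 to 0.22), and for Cd80 Gm12250, Sp140 and Daxx (0.07 to 0.23). The genes nearest to Cd86 were Fam241a, Arhgap22 and Cldnd1 (0.09 to 0.15). Sp140, Tagap and Gbp7 have fractional counts. The scale of FPKM + 1 understates the folds of Gem, of Serpinb2 (0 to 34.4 FPKM in WT) and of Flrt3 (0.42 to 14.2). These genes lie near the ligand genes on that scale and not by FPKM ratio. The search covered 9204 genes, and with 4 libraries such closeness describes these samples only.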

How the data were processed

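Per the labels' protocols, RNA was extracted with Trizol, cleaned on RNeasy columns and sequenced by HiSeq. Bowtie, RSEM and the genome mm10 are named in the submitters' processing notes. For versions, annotation and strand setting, nothing is given in the sources used here. The deposited expected count of a gene is its number of reads as the authors estimated it with RSEM, which splits reads that fit several genes. The deposited FPKM is the authors' value scaled to gene length and library size. The deposited length of a gene, per the file headers, can differ between libraries. A gene missing from a table was set to 0.

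Symbols came from a RefSeq table of GRCm38.p6 (the assembly of mm10), which matched 15897 of 15935 gene identifiers, and strands from GENCODE M21. Folds are log2 of FPKM + 1, over genes of at least 1 FPKM in 1 of the libraries compared. Exact 95% intervals of ratios are Clopper-Pearson intervals on counts rounded to whole numbers, made with scipy 1.17.1 in Python 3.11.15. Intervals and floors (3 counts) cover counting error only, and PCR reads are not independent molecules. There is 1 library per group, so no test was run. The genes and lists were chosen with earlier results of these data known. Within a list, up to 4 genes past 2-fold that reached 50 expected counts in either library were named per comparison. The calculations were tested on simulated counts. Alternatives were pseudocounts of 0.1 and 5, no filter or 5 FPKM, rescaling by median ratio or to equal sums, CPM from the expected counts, 3 counts for missing genes, and size rules of 1.5-fold and 3-fold.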

Additional observations from a re-analysis of the deposited data

How the results depend on the processing

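Of the counts of the 7 measured ligands past the size rule, none changed by over 1.5 times under the 10 alternatives. With LPS, 6 or 7 were higher in WT and 5 to 7 in KO, 5 with a pseudocount of 5 or a 3-fold rule. Between genotypes 0 were past the size rule under each setting. The filter of 5 FPKM left 4 of the 7 in the comparison without LPS, as Cd80, Icosl and Vcam1 fell below it. Over all genes the counts did move. With a pseudocount of 5, 485 genes were higher and 452 lower with LPS in WT, 505 and 399 in KO, 22 and 23 in KO against WT without LPS, and 32 and 37 with LPS. With 0.1 they were 815 and 2787, 874 and 2513, 264 and 198, and 343 and 198. A filter of 5 FPKM left 40 and 43 between genotypes without LPS, and 65 and 62 with LPS. The 3-fold rule gave 439 and 459 genes for LPS in WT and 469 and 362 in KO, then 46 and 40, and 51 and 49, between genotypes. The 1.5-fold rule gave 1044 and 4456, 1136 and 4128, 427 and 336, and 589 and 347. For KO against WT with LPS, the log2 fold of Icosl ran from -0.10 to 0.01 and that of Icam1 from -0.03 to 0.09. That of Cd274 ran from -0.61 to -0.50 and that of Cd80 from -0.63 to -0.40. The LPS log2 folds of the ligands moved more, though none changed sign. In WT that of Vcam1 ran from 2.40 to 4.08 and that of Icosl from 2.83 to 3.99. In KO that of Vcam1 ran from 2.50 to 4.35 and that of Cd80 from 0.78 to 1.71. The median LPS log2 fold of the other costimulatory and adhesion genes as 1 list moved as well. In WT it went from 0.25 to 0.08 with no filter, 0.86 by median ratio and 0.84 by CPM. In KO it went from 0.74 to between 0.07 (no filter) and 1.11 (pseudocount 0.1). The values 0.25 and 0.74 include genes that reached 1 FPKM with LPS alone and so had to be higher. Beside them, the medians of all genes were -0.46 in WT and -0.42 in KO. No paired analysis was possible because each group has 1 library and the labels give no replicate numbers. Depth limits Pdcd1lg2, at 1 or 2 counts per library, and Cd80 and Vcam1 without LPS.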

Other observations

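Genes next to the ligand genes were taken by position, not by value. Plgrkt, a plasminogen receptor gene on the opposite strand, starts 146 bases before the Cd274 start of the promoter table, and both genes run away from each other, so the Cd274 window printed above includes the start of Plgrkt. The RefSeq span of Cd274 overlaps it, and whether counting used strand is not given in the sources used here. Plgrkt was at 30.5 (NT) and 23.4 FPKM (LPS) in WT cells and at 40.6 (NT) and 22.4 FPKM (LPS) in KO cells. It was lower with LPS in both genotypes, at ratios of 0.766 in WT (0.591 to 0.991) and 0.550 in KO (0.426 to 0.707), where Cd274 was higher. The log2 folds of Plgrkt were -0.37 in WT and -0.83 in KO, beside all-gene medians of -0.46 and -0.42. In WT it was thus not lower than the median gene. On the other side of Pdcd1lg2, Ric1 was at 10.8 to 14.3 FPKM. Icam4 starts 618 bases after the end of Icam1 and had at most 5 counts in a library, while Mrpl4 on the other side of Icam1 was at 20.9 to 25.9 FPKM. Ncoa5, next to Cd40, went from 10.7 to 27.5 FPKM in WT (ratio 2.56, 2.16 to 3.04) and from 11.98 to 31.5 in KO. Extl2, next to Vcam1, went from 6.81 to 14.3 FPKM in WT (2.10, 1.66 to 2.65). Timmdc1, which lies 1885 bases after Cd80, was at 4.84 (NT) and 1.92 FPKM (LPS) in WT (0.397, 0.227 to 0.648) and at 4.41 and 3.41 in KO (0.773, 0.491 to 1.20), with fractional counts. Adprh, on the other side of Cd80, was at 37.5 to 48.4 FPKM. Gatd3a, next to Icosl, went from 15.5 to 10.5 FPKM in WT (0.677, 0.503 to 0.906) and from 16.4 to 14.4 in KO (0.883, 0.673 to 1.16). Its log2 folds were -0.52 in WT and -0.17 in KO, beside the same all-gene medians. Dnmt3l, also next to Icosl, and Ildr1, next to Cd86, were below 0.5 FPKM, and Cdh22 (next to Cd40), Casr (next to Cd86) and Rln1 (before Cd274) were not listed in any library.

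The listed length of Cd40, whose row merges 5 RefSeq transcripts, was 1665.5 (NT) and 1691.56 bases (LPS) in WT and 1653.8 (NT) and 1685.71 bases (LPS) in KO. It was thus longer with LPS in both genotypes, with 71 and 76 counts behind the NT values. Of 5537 genes of at least 100 counts in each library, which do not include Cd40, 226 were listed as at least 10 bases longer with LPS in both genotypes and 224 as at least 10 bases shorter. No error of these lengths can be given.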
